A study of Mus musculus with 4 samples.

Results

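Skeletal muscle contractile genes were followed in a study of mouse skin. The set holds 40 genes of the sarcomere, of calcium handling and of energy supply in striated muscle. They were chosen by gene symbol and all 40 were found, among 23203 symbols that stand on a single line of each table. The study profiled skin of adult C57BL/6 mice by 3′ RNA sequencing and has 4 libraries in 4 groups, 1 library per group. These were Egr1 knockout (KO) skin treated with house dust mite (HDM) extract, wild-type (WT) skin treated with HDM, naive Egr1 KO skin and naive WT skin. The treatment label of both HDM groups reads SDS plus HDM extract, and that of both naive groups reads SDS, so that the detergent is named for all 4 groups. For HDM, shaved ear and neck skin received detergent and then 100 mg of cream, 2 times per week for 3 weeks. The sources used here name neither sex, exact age, the number of animals per library nor the part of Egr1 that was deleted. Where the labels name several sites (ears and neck), they do not say which site each library came from.

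A sarcomere contracts when myosin heads of the thick filament pull on actin of the thin filament. Calcium released through the ryanodine receptor binds troponin C and moves tropomyosin off the binding sites, and the SERCA pump takes the calcium back up. Fast and slow fibres use different genes for many of these parts, so the isoforms read out the fibre type. In mice a thin sheet of striated muscle, the panniculus carnosus, lies directly under the skin, and the ear and neck hold further small muscles, which a skin sample may include.

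Depth was alike in the 4 libraries, with 9445605 to 10129020 reads recovered from the deposited log2 values. All values below are either a read number or the deposited log2 value, which is the log2 of 1 plus a scaled read number. The 3′ kit counts transcript ends, so read numbers of different genes were compared without division by transcript length. The labels were checked first. Egr1 had 3493 reads in KO-labelled HDM, 1175 in WT HDM, 3158 in KO-labelled naive and 1966 in WT naive skin, so it was not lower in the libraries labelled KO, and these are called KO-labelled throughout. Whether the tags lie outside the deleted part was not tested, and this cannot be told apart from an error in the labels. Xist, the RNA of the inactive X chromosome, had 2432 and 2196 reads in KO-labelled and WT HDM skin against 40 and 10 in KO-labelled and WT naive skin. The Y-linked gene Ddx3y had 1 read in each HDM library against 2430 and 1925 in the naive ones, so HDM cannot be told apart from this difference in sex-linked transcripts. The KO-labelled naive library stood apart by genes without reads: it lacked any read for 336 genes that reached at least 50 reads in all 3 other libraries, against 0 to 5 such genes in each of those. None of the 40 muscle genes was at 0 reads in that library.

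Muscle was present in every library. The 40 genes held 0.908% of all reads in KO-labelled HDM (exact 95% interval 0.902 to 0.913), 0.679% in WT HDM (0.673 to 0.684), 1.22% in KO-labelled naive (1.21 to 1.22) and 0.857% in WT naive skin (0.851 to 0.863). The highest share was thus less than 2 times the lowest. On the deposited scale the summed reads were 1.31-fold lower with HDM in KO-labelled skin and 1.26-fold lower in WT skin, and 1.25-fold and 1.30-fold higher in KO-labelled than in WT skin with HDM and without it. Intervals here and below cover counting error only, since reads without molecular identifiers are not independent molecules and no group has a replicate. In such tissue RNA, fewer muscle fibres and less RNA per fibre cannot be told apart.

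**Figure D1:**
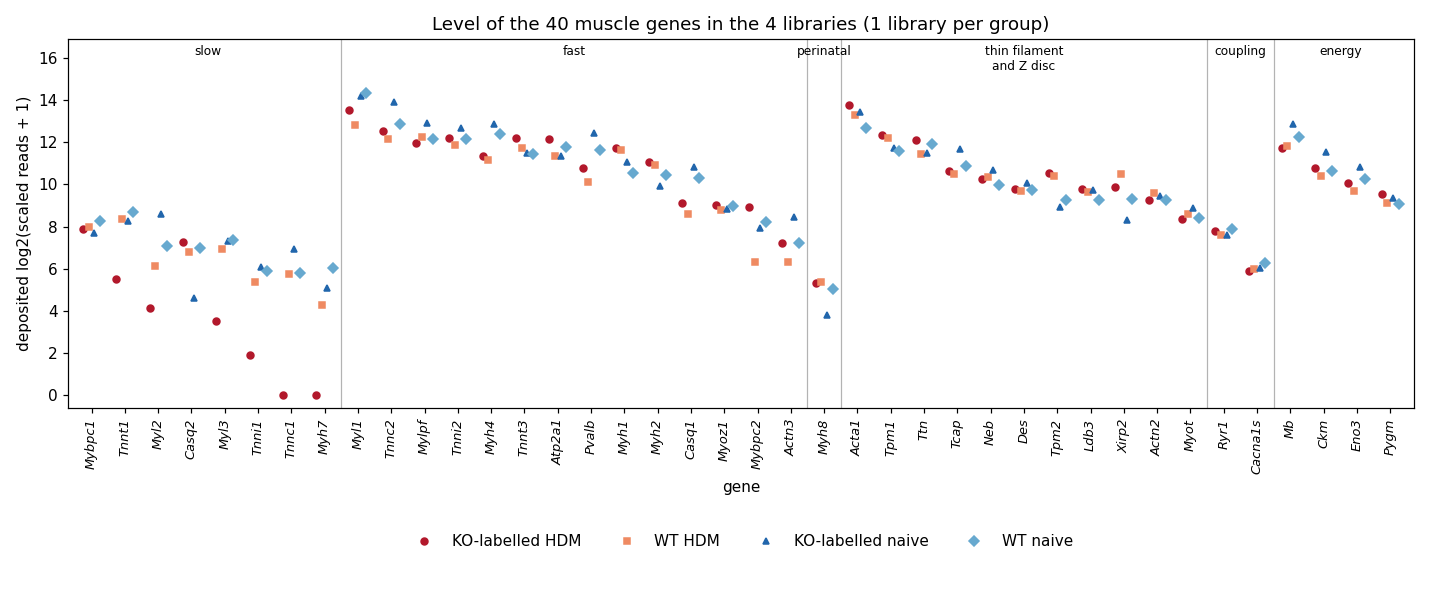
Deposited log2 value (y axis) of each of the 40 genes (x axis, grouped by role) in the 4 libraries, 1 point per library. In the slow group, Tnnc1 and Myh7 stand at 0 in the KO-labelled HDM library and at 4.27 or more in the others, whereas Mybpc1 lies between 7.69 and 8.24 in all 4.

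The 5 promoters below are those of genes that the slow fibre and heavy chain results turn on, 3 slow genes with 0 to 3 reads in KO-labelled HDM skin and 2 fast myosin genes whose balance differed with HDM. Each is the 250 bases before the RefSeq start site (GRCm38.p6, the build that mm10 names), 5′ to 3′ on the gene's strand. Capitals mark E boxes (CANNTG, the letters that myogenic factors such as MyoD recognise), matches to the MEF2 consensus and TATA boxes (TATAAA), searched on both strands.
Tnnc1 (slow and cardiac troponin C, plus strand, chr14:31208062-31208311): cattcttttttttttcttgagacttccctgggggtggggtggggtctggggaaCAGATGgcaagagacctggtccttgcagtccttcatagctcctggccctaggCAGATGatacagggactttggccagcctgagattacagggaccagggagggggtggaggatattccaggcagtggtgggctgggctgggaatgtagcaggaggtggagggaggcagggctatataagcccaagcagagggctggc
Myh7 (slow myosin heavy chain, minus strand, chr14:54994627-54994876): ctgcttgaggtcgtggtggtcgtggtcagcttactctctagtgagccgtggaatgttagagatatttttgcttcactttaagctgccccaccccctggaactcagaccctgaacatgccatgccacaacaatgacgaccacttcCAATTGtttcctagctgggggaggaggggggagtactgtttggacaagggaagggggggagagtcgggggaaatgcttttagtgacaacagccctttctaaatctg
Tnni1 (slow troponin I, plus strand, chr1:135799171-135799420): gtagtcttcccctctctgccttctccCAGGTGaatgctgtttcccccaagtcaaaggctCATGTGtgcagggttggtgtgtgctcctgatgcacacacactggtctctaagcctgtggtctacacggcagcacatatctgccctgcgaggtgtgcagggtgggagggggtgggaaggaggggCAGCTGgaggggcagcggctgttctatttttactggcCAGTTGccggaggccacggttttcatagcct
Myh4 (fast type IIB myosin heavy chain, plus strand, chr11:67237562-67237811): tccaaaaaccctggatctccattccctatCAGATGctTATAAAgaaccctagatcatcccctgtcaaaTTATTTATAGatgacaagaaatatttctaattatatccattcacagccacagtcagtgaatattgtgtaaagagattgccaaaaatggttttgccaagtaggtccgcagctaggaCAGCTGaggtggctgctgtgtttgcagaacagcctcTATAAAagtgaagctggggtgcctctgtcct
Myh1 (fast type IIX myosin heavy chain, plus strand, chr11:67199852-67200101): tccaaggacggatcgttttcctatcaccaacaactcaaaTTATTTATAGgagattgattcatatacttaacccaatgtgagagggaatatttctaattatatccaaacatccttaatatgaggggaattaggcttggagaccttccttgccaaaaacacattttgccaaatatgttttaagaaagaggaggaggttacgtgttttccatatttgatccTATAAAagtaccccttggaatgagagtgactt

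RefSeq promoters were matched for 33 of the 40 genes, with the most upstream start site taken where several are listed. An E box was found in 28 of these 33 windows (84.8%) and in 66.1% of the 27025 windows of all genes. All 8 slow genes had one, including Tnnc1 with 2 and Tnni1 with 4. A MEF2 match was found in 7 of the 33 (21.2%) against 3.03% of all, among them Myh4 and Myh1, where a TATA box overlaps it on the other strand. The MCAT motif (CATTCC) was in 11 (33.3%, against 12.6%) and a TATA box in 6 (18.2%), against 3507 of the 27025 windows. The binding motif of EGR factors (GCGNGGGCG) was in 0 of the 33 windows and in 4.63% of all windows. A match describes letters and is not a site.

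Of the 8 slow fibre genes, 6 were lowest in the KO-labelled HDM library. The share of all genes lowest in that library was not counted. Slow fibres contract slowly, rely on oxidative metabolism and use their own troponins and myosin chains. Tnnc1, which encodes the calcium sensor of slow and cardiac troponin, had 0 reads in KO-labelled HDM skin, 49 in WT HDM, 128 in KO-labelled naive and 52 in WT naive skin. It was at least 42.5-fold lower in KO-labelled skin with HDM than without it, with a 0 taken as up to 3 reads, and at least 18.7-fold lower in KO-labelled than in WT skin under HDM. In WT skin it was 1.04-fold lower with HDM, with an interval from 0.690 to 1.57 that includes no difference.

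Myh7, the slow type I myosin heavy chain gene, had 0 reads in KO-labelled HDM, 17 in WT HDM, 35 in KO-labelled naive and 61 in WT naive skin. The KO-labelled HDM value was at least 6.50-fold lower than that of WT HDM and at least 11.6-fold lower than that of KO-labelled naive skin. In WT skin Myh7 was 3.52-fold lower with HDM (2.03 to 6.42). Over the last 300 bases of its transcript, 49.4% of 50-base windows also occur in Myh6, the cardiac heavy chain gene, so reads of this pair may have been exchanged. Myh6 itself had 0, 5, 1 and 7 reads in the same order of libraries.

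Tnni1, the inhibitory subunit of slow troponin, had 3 reads in KO-labelled HDM, 37 in WT HDM, 70 in KO-labelled naive and 55 in WT naive skin. It was 14.2-fold lower in KO-labelled than in WT HDM skin (4.48 to 71.8) and 23.3-fold lower than in KO-labelled naive skin (7.64 to 116). Tnnt1, the slow troponin subunit that binds tropomyosin, had 48, 308, 326 and 395 reads in that order. KO-labelled HDM was the lowest library again, 7.36-fold below WT HDM (5.42 to 10.2) and 6.77-fold below KO-labelled naive skin (4.99 to 9.37). In WT skin, Tnnt1 was 1.26-fold lower with HDM than without it (1.08 to 1.46).

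The slow light chains, which stiffen and regulate the myosin lever arm, were also lowest in KO-labelled HDM skin. Myl3 had 11 reads in KO-labelled HDM, 113 in WT HDM, 167 in KO-labelled naive and 153 in WT naive skin, and was 11.8-fold lower in KO-labelled than in WT HDM skin (6.34 to 24.3). Myl2 had 18, 63, 408 and 126 reads, and was 4.02-fold lower in that comparison (2.35 to 7.21) and 22.6-fold lower with HDM in KO-labelled skin (14.1 to 38.5). Myl2 also differed without HDM, with a level 2.87-fold higher in KO-labelled than in WT skin (2.35 to 3.53). These 6 genes were thus lowest in the same library.

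Mybpc1 and Casq2, listed here as slow isoforms, did not follow them. Mybpc1, a thick filament protein, had 250 reads in KO-labelled HDM, 230 in WT HDM, 219 in KO-labelled naive and 286 in WT naive skin, and differed by less than 1.5-fold in every comparison. Casq2, a calcium-binding protein of the sarcoplasmic reticulum that heart muscle also uses, had 165, 102, 25 and 118 reads. Its low library was KO-labelled naive, so that it was 6.62-fold higher with HDM in KO-labelled skin (4.33 to 10.5) and 5.32-fold lower in KO-labelled than in WT naive skin (3.44 to 8.56). A gene was counted below when its mean log2 value over the 4 libraries exceeded the median of all symbols, 5.11, which kept 36 of the 40 members and 11600 genes in all. Myh7, Tnnc1, Tnni1 and Myh8 fell under this filter, with means of 3.85, 4.62, 4.80 and 4.88, and the nearest member above it was Cacna1s with 6.06. Of the 5 slow genes above the filter, 3 were lower by 2-fold or more in KO-labelled than in WT HDM skin. Among all genes above the filter 4.66% were. Of all 8 slow genes 6 were, but Myh7, Tnnc1 and Tnni1 lie under the filter, where that share does not apply. Summed over the 8 slow genes, reads were 2.13-fold lower in KO-labelled than in WT HDM skin (1.91 to 2.38). With HDM they were 2.77-fold lower in KO-labelled skin (2.50 to 3.08) and 1.33-fold lower in WT skin (1.22 to 1.45).

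Ratios between a slow gene and its fast partner inside a library do not depend on scaling between libraries. Tnnt1 made up 0.960% of the troponin T pair in KO-labelled HDM (0.708 to 1.27), 8.98% in WT HDM (8.05 to 9.99), 9.47% in KO-labelled naive (8.52 to 10.5) and 13.1% in WT naive skin (11.9 to 14.4). Tnni1 made up 0.0591% of the troponin I pair in KO-labelled HDM skin (0.0122 to 0.173), against 1.05% in WT HDM skin, 70 Tnni1 to 6904 Tnni2 reads in KO-labelled naive skin (interval 0.783% to 1.27%) and 1.26% in WT naive skin. For troponin C, 0 of the pair's reads in KO-labelled HDM skin allow a Tnnc1 share of up to 0.0483%, against 1.14%, 0.769% and 0.724% in the other libraries. Myl3 was 0.0871% of its pair with Myl1 in KO-labelled HDM and 1.67%, 0.830% and 0.779% elsewhere, and Myl2 was 0.428% of its pair with Mylpf against 1.38%, 4.69% and 2.83%. Intervals of the KO-labelled HDM library did not overlap those of any other library in these 5 pairs. Pairs were formed for these isoforms only, so no share over all genes stands beside this count.

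The share of the slow gene was also lowest in KO-labelled HDM skin for Myh7 and for Mybpc1, while the remaining pairs varied. Against Myh4, 0 reads of Myh7 in KO-labelled HDM skin allow a share of up to 0.109%, with 0.798%, 0.436% and 1.20% in WT HDM, KO-labelled naive and WT naive skin. Mybpc1 was 32.7% of its pair with Mybpc2 in KO-labelled HDM, 75.7% in WT HDM, 45.7% in KO-labelled naive and 50.8% in WT naive skin. Casq2 was 21.8% and 22.2% of the calsequestrin pair in KO-labelled and WT HDM skin, against 1.27% and 9.04% in KO-labelled and WT naive skin. Atp2a2, the SERCA pump of slow fibres that the epidermis also makes, had 46.4%, 64.3%, 58.7% and 37.4% of the pump pair and cannot be ascribed to muscle in skin. Actn2, the alpha-actinin of all fibres, made up 80.8%, 90.9%, 66.6% and 80.9% of the pair with the fast-fibre gene Actn3.

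**Figure D2:**
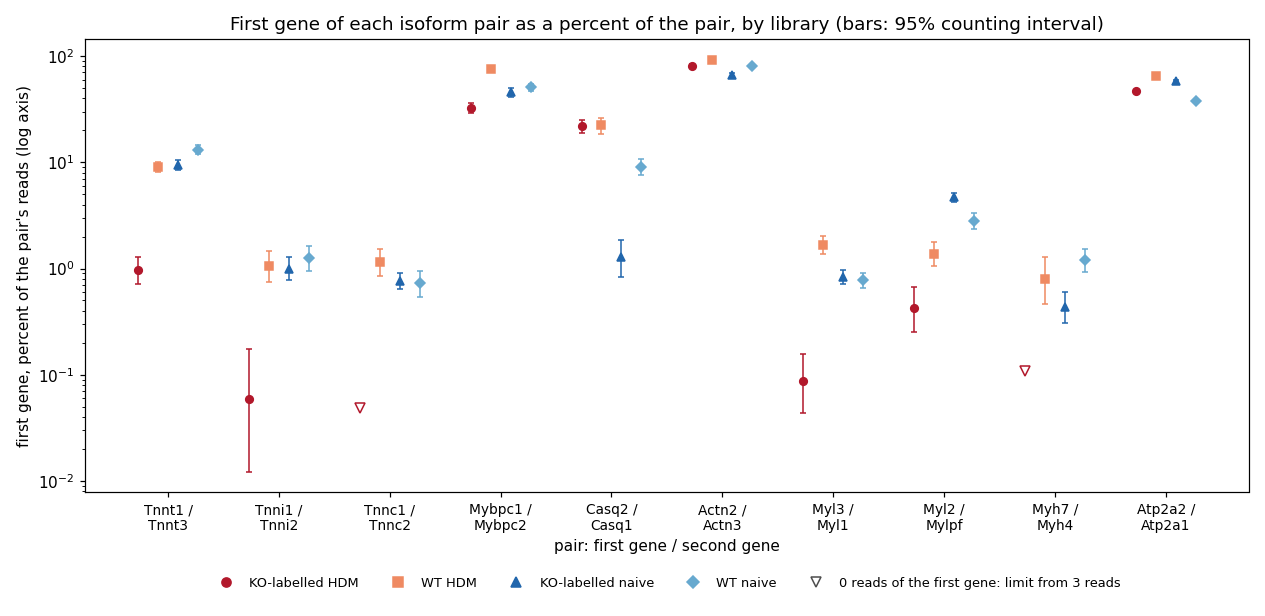
Reads of the first gene as a percent of the reads of its pair (log y axis) for 10 isoform pairs (x axis) in the 4 libraries, with exact 95% counting intervals and open triangles for the limit at 0 reads. KO-labelled HDM is lowest in the troponin T, I and C pairs, in both light chain pairs and in the Myh7 and Mybpc1 pairs. Tnnt1 stands at 0.960% there against 8.98% to 13.1% in the other libraries.

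Myh4, Myh1 and Myh2 instead divided the HDM from the naive libraries. The same libraries differ in Xist and Ddx3y reads, so treatment cannot be told apart from that difference here. The fast heavy chain genes lie in tandem on chromosome 11, plus strand, with Myh2 at 67171027 to 67197517, Myh1 at 67200052 to 67224575, Myh4 at 67238029 to 67260446 and Myh8 at 67277124 to 67308634 (GENCODE M21, GRCm38). Myh4, whose type IIB myosin is the fastest, had 2744 reads in KO-labelled HDM, 2112 in WT HDM, 7991 in KO-labelled naive and 5016 in WT naive skin. Both HDM libraries were below both naive libraries, by 2.90-fold in KO-labelled skin (2.78 to 3.03) and by 2.33-fold in WT skin (2.21 to 2.45).

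Myh1, the type IIX gene, had 3587, 2944, 2277 and 1398 reads in the same order and was 1.58-fold higher with HDM in KO-labelled skin and 2.15-fold higher in WT skin (2.02 to 2.29). Myh2, the type IIA gene of fast oxidative fibres, had 2273, 1808, 1038 and 1337 reads. It was 2.20-fold (2.04 to 2.37) and 1.38-fold higher (1.29 to 1.48) with HDM in KO-labelled and WT skin. For Myh1 and Myh2 every HDM library was therefore above every naive one. Myh8, the perinatal heavy chain, had only 42, 37, 14 and 30 reads.

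As a share of the reads of these 5 genes, Myh4 held 31.7% in KO-labelled HDM (30.8 to 32.7) and 30.5% in WT HDM (29.4 to 31.6), against 70.4% in KO-labelled naive (69.5 to 71.2) and 64.0% in WT naive skin (62.9 to 65.0). Myh1 held 41.5% and 42.6% in KO-labelled and WT HDM skin against 20.1% and 17.8% in KO-labelled and WT naive skin. Myh2 held 26.3% and 26.1% with HDM against 9.14% and 17.0% without it. The most abundant heavy chain was thus Myh1 in both HDM libraries and Myh4 in both naive libraries. Over the last 300 bases, 28.7% of 50-base windows of Myh1 and of Myh2, 13.5% of those of Myh4 and 2.39% of those of Myh8 also occur in another heavy chain gene, so some reads may be exchanged among them. In the other 35 members no such window was shared.

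**Figure D3:**
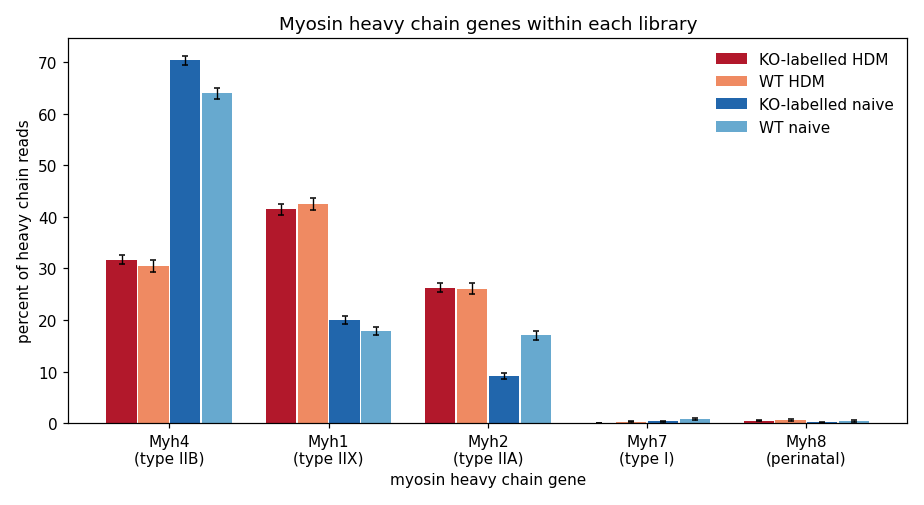
Percent of the summed reads of 5 myosin heavy chain genes (y axis) held by each gene (x axis) in the 4 libraries, with exact 95% counting intervals as bars. Myh4 stands at 31.7% and 30.5% in the HDM libraries and at 70.4% and 64.0% in the naive ones, whereas Myh1 stands at 41.5% and 42.6% against 20.1% and 17.8%.

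Among the other fast genes, Pvalb and Casq1 were lower with HDM by 2-fold or more in both genotypes, and Actn3 in KO-labelled skin. Pvalb, a calcium buffer of fast fibres, had 1873 reads in KO-labelled HDM and 1027 in WT HDM, against 5964 in KO-labelled naive and 3034 in WT naive skin. It was 3.17-fold lower in KO-labelled skin (3.01 to 3.34) and 2.89-fold lower in WT skin (2.70 to 3.11). Casq1, the main calsequestrin of fast fibres, had 592 and 358 reads with HDM against 1942 and 1187 without it, a 3.27-fold (2.98 to 3.59) and a 3.25-fold lower level (2.88 to 3.67) in KO-labelled and WT skin. Actn3, which crosslinks actin at the Z disc of fast fibres, had 156 and 72 reads against 376 and 139, and was 2.40-fold (1.99 to 2.91) and 1.89-fold lower (1.41 to 2.55).

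Fast troponins and light chains differed less evenly. Tnnc2, the fast calcium sensor, had 6206, 4246, 16525 and 7134 reads in KO-labelled HDM, WT HDM, KO-labelled naive and WT naive skin, and was 2.65-fold (2.58 to 2.73) and 1.65-fold lower (1.58 to 1.71) with HDM in KO-labelled and WT skin. Tnni2 had 5073, 3475, 6904 and 4322 reads and was 1.36-fold and 1.22-fold lower. Tnnt3 was higher with HDM, with 4954 and 3121 reads against 3115 and 2614, by 1.60-fold in KO-labelled skin (1.53 to 1.67) and 1.22-fold in WT skin (1.16 to 1.28). The 3 subunits of fast troponin therefore did not move as a unit.

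Myl1, the fast essential light chain and the most abundant of the 40 genes, had 12622 reads in KO-labelled HDM, 6635 in WT HDM, 19953 in KO-labelled naive and 19492 in WT naive skin. Its difference was larger in WT skin, 2.88-fold lower with HDM (2.80 to 2.96), than in KO-labelled skin, 1.58-fold lower (1.54 to 1.61). Mylpf, the fast regulatory light chain, had 4183, 4491, 8290 and 4331 reads and was 1.98-fold lower with HDM in KO-labelled skin (1.90 to 2.05) and 1.06-fold higher in WT skin (1.01 to 1.10). KO-labelled naive was the high library for this gene.

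Mybpc2, the fast myosin binding protein, was the member with the largest difference upward between genotypes under HDM. It had 515 reads in KO-labelled HDM, 74 in WT HDM, 260 in KO-labelled naive and 277 in WT naive skin. It was 6.06-fold higher in KO-labelled than in WT HDM skin (4.74 to 7.85), with WT HDM the low library. Atp2a1, the SERCA pump of fast fibres, had 4842, 2391, 2751 and 3348 reads, and was 1.76-fold higher in the KO-labelled library under HDM (1.68 to 1.85) and 1.37-fold lower in it without HDM (1.30 to 1.44). Myoz1, a calcineurin-binding Z disc protein of fast fibres, lay between 410 and 546 reads in all 4.

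Of the 14 fast genes, all above the filter, 1 passed 2-fold upward and 5 downward with HDM in KO-labelled skin (median log2 difference -0.55), against 21.7% and 18.2% of all genes. In WT skin 1 passed upward and 5 downward as well (median -0.59), against 14.5% and 12.7% of all genes. The medians of all genes above the filter were 0.06 and 0.03 in these comparisons. Between genotypes, 1 fast gene passed 2-fold upward and 0 downward in KO-labelled against WT HDM skin (median 0.41), where 3.06% of all genes passed upward. In naive skin 2 passed upward and 0 downward (median 0.50), against 13.6% and 17.1% of all genes. Fast genes held 54.6% and 51.7% of the reads of the 40 members in KO-labelled and WT HDM skin, against 64.3% and 65.7% in KO-labelled and WT naive skin.

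**Figure D4:**
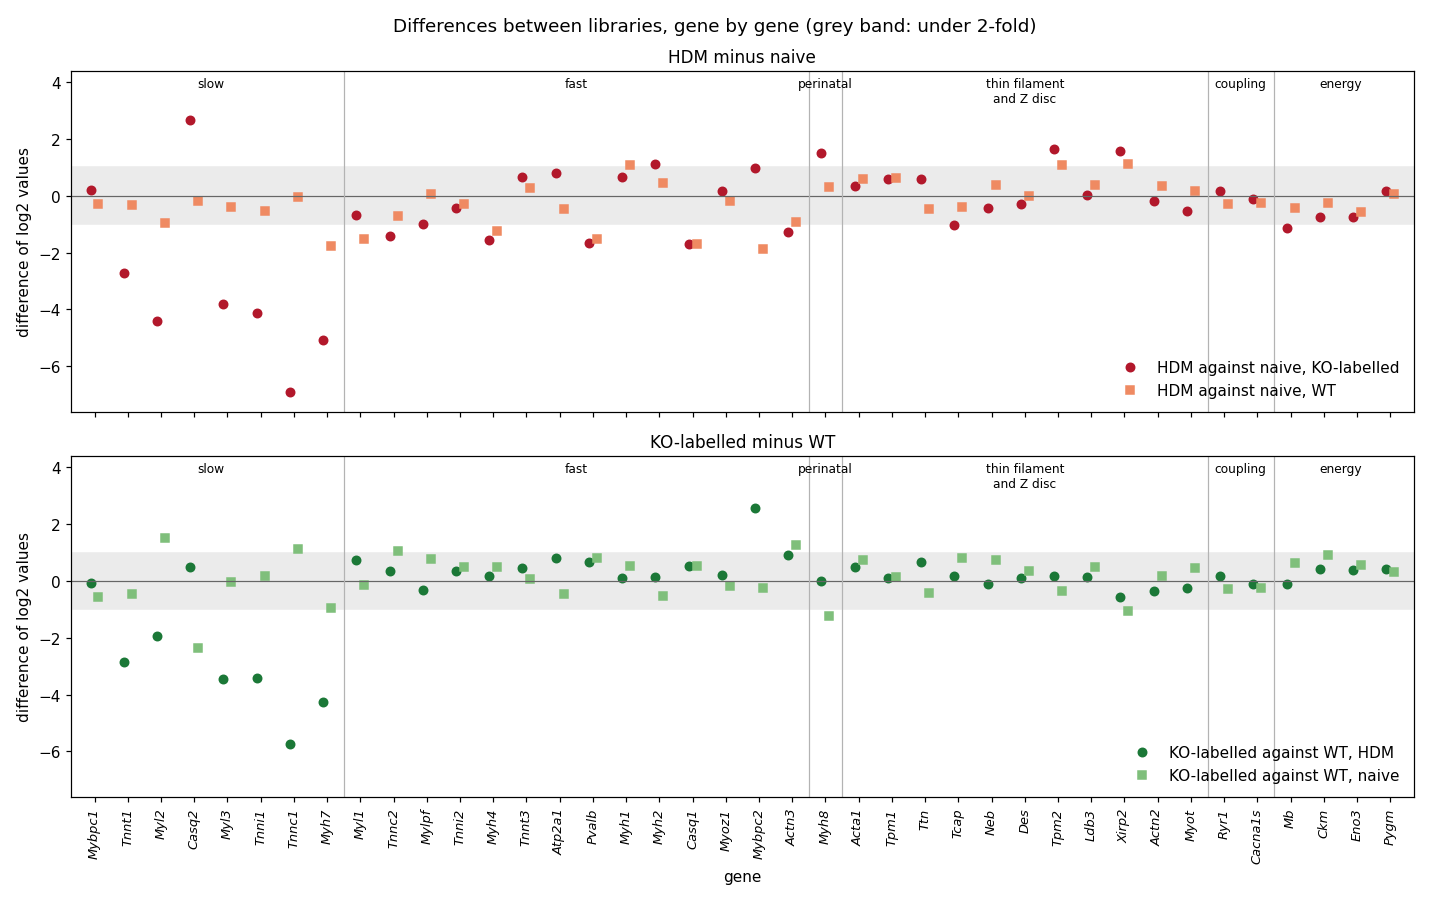
Difference of deposited log2 values (y axis) for the 40 genes (x axis, grouped by role), HDM minus naive in the upper panel and KO-labelled minus WT in the lower one, 1 point per comparison of 2 libraries. Grey marks differences under 2-fold. Both HDM comparisons show Myh4, Pvalb and Casq1 below the band and Tpm2 and Xirp2 above it. In each of the 2 comparisons of the KO-labelled HDM library 6 slow genes lie below the band, of which Myh7 (-1.76) is also below it with HDM in WT skin.

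Thin filament and Z disc genes, which both fibre types use, were mostly within 2-fold, with 2 of 11 higher and 1 lower with HDM in KO-labelled skin, and 2 higher and 0 lower in WT skin. Among all genes, HDM skin was higher for 21.7% and lower for 18.2% in the KO-labelled pair of libraries, and for 14.5% and 12.7% in the WT pair. Acta1, skeletal actin, had 14825 reads in KO-labelled HDM, 9254 in WT HDM, 11636 in KO-labelled naive and 6197 in WT naive skin. It was 1.28-fold (1.25 to 1.31) and 1.52-fold higher (1.48 to 1.57) with HDM in KO-labelled and WT skin. Ttn, the elastic filament that runs from the Z disc to the M line, had 4697, 2582, 3115 and 3664 reads. Neb, the ruler of the thin filament, lay between 939 and 1764 reads, Des, the intermediate filament of muscle, between 771 and 1140, Ldb3 between 571 and 934, Actn2 between 587 and 749 and Myot between 324 and 505. Tcap, which caps titin at the Z disc, had 1710 and 1323 reads with HDM against 3500 and 1772 without it and was 2.04-fold lower in KO-labelled skin (1.93 to 2.16).

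Tpm2 and Xirp2 were higher with HDM in both genotypes. Tpm2, beta-tropomyosin, had 1607 reads in KO-labelled HDM and 1233 in WT HDM, against 517 in KO-labelled naive and 585 in WT naive skin, 3.12-fold (2.82 to 3.45) and 2.15-fold higher (1.95 to 2.38). Xirp2, an actin-binding protein of muscle attachment sites, had 1005 and 1312 reads against 335 and 610, 3.01-fold (2.66 to 3.42) and 2.20-fold higher (1.99 to 2.42). Tpm1, alpha-tropomyosin, had 5437 and 4344 reads against 3601 and 2879, 1.51-fold and 1.54-fold higher. Tpm1 and Tpm2 are also made by smooth muscle and other skin cells. Of 8 smooth muscle markers above the filter, 2 were higher and 0 lower with HDM in KO-labelled skin, and 1 was higher and 1 lower in WT skin. The shares of all genes were 21.7% and 18.2% in KO-labelled skin and 14.5% and 12.7% in WT skin. Tagln, an actin-binding protein of smooth muscle, had 358 and 301 reads with HDM against 55 and 136 without it. The 12 markers together held 0.0262% to 0.0395% of reads in the 4 libraries. Their part in the tropomyosin values was not tested.

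Calcium release and energy genes completed the set. Ryr1, the calcium release channel, lay between 179 and 231 reads, and Cacna1s, the voltage sensor that opens it, between 59 and 72, and neither differed by more than 1.23-fold in any comparison. Mb, the oxygen store of muscle, had 3644 and 3380 reads in KO-labelled and WT HDM skin against 8064 and 4641 in KO-labelled and WT naive skin, and was 2.21-fold (2.12 to 2.29) and 1.35-fold lower (1.29 to 1.41) with HDM. Ckm, the muscle creatine kinase, had 1883 and 1231 reads against 3126 and 1484, and Eno3, muscle enolase, 1142 and 764 against 1925 and 1158. Pygm, glycogen phosphorylase, lay between 504 and 792.

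The counts over the 36 members above the filter were set beside those of all genes. With HDM in WT skin, 3 members passed 2-fold upward and 5 downward, or 22.2% of the members, against 27.2% of all genes. For HDM in KO-labelled skin, 4 were higher and 10 lower, or 38.9%, against 39.9% of all genes. By direction, 11.1% of the members were higher there, against 21.7% of all genes, and 27.8% were lower, against 18.2%. Between KO-labelled and WT naive skin, 3 were higher and 2 lower, or 13.9% against 30.7%. Between KO-labelled and WT HDM skin, 1 was higher and 3 lower, or 11.1% against 7.72%. The median log2 differences of the members were -0.27 and -0.23 with HDM in WT and KO-labelled skin, and 0.33 and 0.18 for KO-labelled against WT in naive and HDM skin. All genes above the filter had medians of 0.03, 0.06, -0.03 and -0.01 in the same comparisons.

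The HDM comparisons of the 2 genotypes share no library. Myh4, Casq1 and Pvalb were lower by 2-fold or more in both, and 6.71% of all genes were. Tpm2 and Xirp2 were higher by 2-fold or more in both, as 7.06% of all genes were. In 25 of 36 members the sign was the same in both. The share of all genes with the same sign was not counted, so this number is not read as a result about the members. The difference of the HDM response, KO-labelled minus WT, passed 2-fold upward in 4 members and downward in 4, against 19.5% and 17.4% of all genes and 36.9% in either direction. On the log2 scale it was -3.46 for Myl2, -3.39 for Myl3, 2.86 for Casq2 and 2.85 for Mybpc2, all above the filter. Under the filter it was -6.86 for Tnnc1, -3.60 for Tnni1, -3.32 for Myh7 and 1.20 for Myh8. Tnnc1, Tnni1 and Myh7 had 0 to 3 reads in KO-labelled HDM skin. With 1 library per group the difference of the HDM response has no test.

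Further gene lists covered other members of the same structures, though not all of their genes are particular to muscle. Of 26 other sarcomere and costamere genes above the filter, 3 were higher and 12 lower with HDM in KO-labelled skin. In WT skin 3 were higher and 4 lower. Between KO-labelled and WT HDM skin 0 passed 2-fold, as 7.72% of all genes did. Without the filter, the list of 31 genes counted 8 upward and 12 downward in the KO-labelled pair of libraries, and 4 and 4 in the WT pair. Under the filter, Mypn, Mybph, Myl6b and Synpo2l had 0 reads in KO-labelled naive skin and Ankrd23 had 3. Each was higher with HDM in the KO-labelled pair, so the filter added to the downward lean. The shares of all genes do not apply under it. For this list and the next 2, the shares of all genes higher and lower with HDM were 21.7% and 18.2% in KO-labelled skin and 14.5% and 12.7% in WT skin. Ankrd2, a stretch-responsive gene of the Z disc region, had 257 and 430 reads in KO-labelled and WT HDM skin against 51 and 95 in KO-labelled and WT naive skin. Sgca, a subunit of the dystrophin complex, had 36 and 20 against 241 and 92. Among 14 triad and calcium handling genes, 1 was higher and 4 lower with HDM in KO-labelled skin. In WT skin 2 were higher and 2 lower. The 2 higher were Fkbp1a and Atp2a2, and Atp2a2 cannot be ascribed to muscle in skin. Without the filter, the list of 17 genes counted 3 upward and 4 downward in the KO-labelled pair, and 4 and 3 in the WT pair. Among 19 muscle metabolism genes, 1 was higher in each genotype and 7 and 8 were lower in KO-labelled and WT skin. The higher gene was Aldoa in both. Ampd1, the AMP deaminase of muscle, had 110 and 59 reads with HDM against 394 and 199 without it.

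Of 5 genes of embryonic and regenerating fibres above the filter, 2 were lower and 0 higher by 2-fold or more in KO-labelled than in WT HDM skin, against 4.66% and 3.06% of all genes. Myh3, the embryonic heavy chain, had 18 reads in KO-labelled HDM, 128 in WT HDM, 296 in KO-labelled naive and 261 in WT naive skin, 8.16-fold lower in KO-labelled than in WT HDM skin (4.96 to 14.2). Actc1, cardiac actin, which embryonic skeletal fibres also use, had 25, 175, 417 and 244 reads and was 8.03-fold lower in that comparison (5.27 to 12.8). Ncam1, an adhesion gene of the same list that nerve cells also use, was higher in that comparison, with 510 reads in KO-labelled HDM against 287 in WT HDM skin. Myh6, Nppa and Myl7, which define heart muscle, had 0 to 18 reads in each library. Some other genes of the heart list reached higher numbers. Tnni3, Tnnt2 and Myl4 had 26, 41 and 14 reads in KO-labelled HDM and 25, 57 and 30 in WT HDM skin. In naive skin they had 6, 79 and 3 reads in the KO-labelled library and 23, 78 and 46 in the WT one.

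Markers of other tissues moved with the libraries as well. The 11 cartilage markers in the tables held 69 reads in KO-labelled HDM skin, against 14419 in WT HDM, 23071 in KO-labelled naive and 25952 in WT naive skin. All 6 above the filter were lower in KO-labelled than in WT HDM skin, and 5 of the 11 were at 0 reads in the KO-labelled HDM library. Cytl1, a cartilage cytokine gene, had 26, 11609, 17119 and 17253 reads in KO-labelled HDM, WT HDM, KO-labelled naive and WT naive skin. The library without Tnnc1 and Myh7 reads was thus also the one with fewest cartilage reads, and the part of sampled tissue in the slow gene values was not tested.

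Summed reads of salivary and Schwann cell markers divided the libraries by treatment, but not every gene did. Salivary Lpo had 71 and 487 reads in KO-labelled and WT HDM skin against 0 and 771 in naive skin. Sox10 of the Schwann cell list had 230 and 80 against 122 and 452. With HDM in KO-labelled skin, 5 of 6 salivary markers above the filter were lower by 2-fold and 1 higher. Of 8 Schwann cell markers 4 were lower and 0 higher, against 18.2% and 21.7% of all genes. Salivary secretory markers held 0.00158% of reads in KO-labelled HDM and 0.00733% in WT HDM skin, against 0.822% in KO-labelled naive and 7.12% in WT naive skin. Schwann cell markers held 0.0349% and 0.0395% with HDM against 0.169% and 0.167% without it. The adipocyte markers held 0.172% and 0.0827% against 0.566% and 0.157%, so that these groups overlapped. Their part in the difference of fast heavy chains between HDM and naive skin was not tested.

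**Figure D5:**
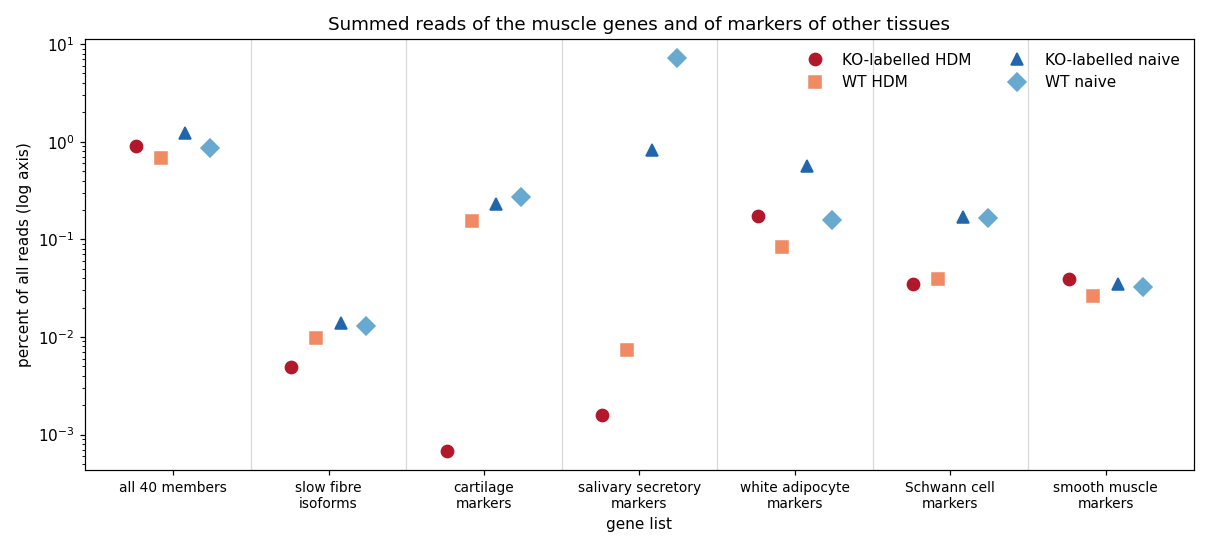
Summed reads of the 40 muscle genes, of the 8 slow genes and of markers of 5 other tissues (x axis) as a percent of all reads (log y axis), 1 point per library. Cartilage markers stand far below the other libraries in KO-labelled HDM skin, with 69 reads, and salivary markers stand at 0.822% and 7.12% in the naive libraries.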

How the data were processed

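The authors deposited 1 table per library of log2 values with 3 decimals for each gene symbol. Per the submitters' processing notes, Bowtie2, bedtools and mm10 were used, without version or role, and the sources used here do not name the scaling, annotation or filters. Per the labels' protocols, 500 ng of total RNA entered a QuantSeq 3′ kit. After the log2 was undone and 1 subtracted, low values lay on whole multiples of a step (0.939, 1.078, 0.936 and 1.056 in KO-labelled HDM, WT HDM, KO-labelled naive and WT naive). Reads were recovered by division and rounding, and 99.1%, 98.8%, 96.2% and 99.3% of genes with 1 to 200 reads came out whole within 0.1 read. Larger numbers are approximate.

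Python 3.11.15 with numpy 2.4.6, pandas 2.3.3, scipy 1.17.1 and matplotlib 3.10.9 was used. The 35 symbols on 79 lines were left out; none was a member. With 1 library per group no test across libraries was possible, and no p-value is given. A difference is that of deposited log2 values (pseudocount 1), and 2-fold or more was counted. Fold ratios on the deposited scale have exact conditional 95% intervals (Clopper-Pearson), and a count of 0 was set to 3 reads per library for a bound. The recovery was tested on simulated data.

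Members named in full were those past 2-fold in a comparison, those in isoform pairs, the heavy chains and the 5 highest by mean. From each other list at most the 3 genes with the largest mean difference were named, and defining markers with few reads. The promoters shown, Myh6, Nppa, Myl7, Tnni3, Myl4, Ncam1, Lpo, Fkbp1a, Aldoa and Mt1 were chosen after their values were seen. The members and lists were chosen with earlier results of these data known. Alternatives changed the filter, pseudocount, scaling, size rule, members and rounding to reads.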

Additional observations from a re-analysis of the deposited data

Results flagged for a closer look

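In 6 members the difference between HDM and naive skin went in opposite directions in the 2 genotypes, each beyond counting error. On the log2 scale these differences were 0.99 in KO-labelled and -1.86 in WT skin for Mybpc2, 0.82 and -0.46 for Atp2a1, and 0.60 and -0.47 for Ttn. They were -0.98 and 0.08 for Mylpf, -0.43 and 0.39 for Neb, and -0.19 and 0.33 for Actn2, in the same order. With 1 library per group the difference between genotypes was not tested. None of the 6 passed 2-fold in both directions, a stricter rule that 1.76% of all genes met. The share of all genes that met the looser rule was not counted, so the number flagged is not read as a result about the members.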

How the results depend on the processing

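Counts of members past 2-fold depended on the size rule and on the filter. No paired analysis was possible because each group holds 1 library and no result comes from a test. For the same reason no library could be left out of a group. No difference of 2-fold or more changed sign under any alternative, but such a change could hardly occur. A larger pseudocount cannot change a sign, and rescaling shifted the members by a median log2 of at most 0.39. The absence of sign changes thus does not speak to stability. With HDM in WT skin (3 higher, 5 lower), the counts were 5 and 8 at 1.5-fold and 0 and 2 at 3-fold, and the median was -0.01 with the filter at the 75th percentile and 0.06 relative to the summed member reads. For HDM in KO-labelled skin (4 and 10), 10 were higher at 1.5-fold and 5 lower at 3-fold, 6 were lower at the 75th percentile, and 8 were higher relative to the member sum. The median there was -0.35 with no filter and 0.17 relative to the member sum. Without members that smooth or heart muscle also use, 2 were higher and the median was -0.43. For KO-labelled against WT naive skin (3 and 2), 10 were higher at 1.5-fold, 0 higher and 1 lower at 3-fold, and 1 higher and 1 lower at the 75th percentile. Scaled to library totals 1 was lower, without shared members 1 was lower, and relative to the member sum 1 was higher. The median was 0.50 at the 75th percentile and without shared members, 0.45 scaled to library totals and -0.06 relative to the member sum. For KO-labelled against WT HDM skin (1 and 3), 6 were lower with no filter, 0 were higher and 0 lower at the 75th percentile, 2 were higher scaled to library totals, 6 were higher at 1.5-fold, 1 was lower without shared members, and the median was -0.15 relative to the member sum. Scaling to the member sum moved the median of all genes to 0.36 and 0.45 with HDM in WT and KO-labelled skin and to -0.41 and -0.33 for KO-labelled against WT in naive and HDM skin. The members' share of reads in KO-labelled HDM, WT HDM, KO-labelled naive and WT naive skin was 0.932%, 0.713%, 1.24% and 0.941% with Rn45s and salivary markers left out of the total. It was 0.761%, 0.581%, 1.10% and 0.793% without Acta1, and 0.484%, 0.381%, 0.581% and 0.426% without the 5 members with most reads. Leaving out genes at 0 reads in the KO-labelled naive library, chosen after seeing the data, removed no member. Of 178 such values in all, 133 stayed within 1.5 times (counts) or within counting error (others). Of these, 40 are pair shares recomputed without rounding to reads, which could hardly move. A further 12 come from the setting that removed no member, which could not move. Neither group speaks to stability. Slow genes in KO-labelled HDM skin rest on 0 to 48 reads, apart from Mybpc1 and Casq2.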

Other observations

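For the 3 gene lists below, the shares of all genes higher and lower by 2-fold or more with HDM were 21.7% and 18.2% in KO-labelled skin and 14.5% and 12.7% in WT skin. The myogenic factor genes Myod1 and Myog had 17 and 11 reads in KO-labelled HDM, 1 and 13 in WT HDM, 0 and 0 in KO-labelled naive and 12 and 0 in WT naive skin, and were chosen after their values were seen. Of 8 myogenic regulator and satellite cell genes above the filter, 0 were higher and 3 lower with HDM in KO-labelled skin. In WT skin 0 were higher and 2 lower. Without the filter, the list of 17 genes counted 5 upward and 4 downward in the KO-labelled pair of libraries, and 2 and 6 in the WT pair. The 5 were Myod1, Myog, Pax7, Pax3 and Eya4, each with 0 reads in KO-labelled naive skin. The count of 0 upward in the KO-labelled pair thus depends on the filter. The shares of all genes do not apply under it. Sox6, a transcription factor that represses slow fibre genes in mouse muscle and is also expressed in other skin cells, had 206 and 148 reads in KO-labelled and WT HDM skin against 914 and 574 in KO-labelled and WT naive skin. Mstn, the growth inhibitor myostatin, had 41 and 21 reads with HDM against 119 and 17 without it.

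Of 4 neuromuscular junction genes above the filter, 1 was higher and 0 lower with HDM in KO-labelled skin, and 0 were higher and 1 lower in WT skin. The unfiltered list of 10 genes counted 5 upward and 0 downward in the KO-labelled pair of libraries, and 3 and 2 in the WT pair. Lrp4, the agrin receptor, which other cells also use, had 417 and 318 reads with HDM against 703 and 1532 without it. Of 10 denervation and atrophy genes, HDM skin was higher for 2 and lower for 2 in the KO-labelled pair of libraries, and higher for 2 and lower for 1 in the WT pair. The 2 higher in each pair were the metallothionein genes Mt1 and Mt2. Mt2 had 11407 and 8073 reads in KO-labelled and WT HDM skin against 3548 and 2274 in naive skin. The unfiltered list of 13 genes counted 3 upward and 2 downward in the KO-labelled pair, and 5 and 1 in the WT pair. Chrna1, an acetylcholine receptor subunit, had 47 and 60 reads with HDM against 343 and 33 without it, and Trim63, a ubiquitin ligase of muscle atrophy, 81 and 63 against 340 and 90. For both genes KO-labelled naive was the high library.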
